A study of Xenopus laevis with 9 samples.

Results

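The baseline transcriptome of XLK-WG, a cell line grown from the kidney of the African clawed frog Xenopus laevis, was described from the 3 vehicle-treated arrays of the study. All non-control probe sets with exactly 1 gene symbol in the platform annotation were taken, which gave 9304 of the 15491 non-control probe sets on the array. They stood for 7531 genes, of which 4307 carry the copy suffix .L, 2956 the suffix .S and 268 neither. The rule itself reads the annotation and the treatment label, not the signal.

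Xenopus laevis arose from a cross between related frog species followed by a doubling of the chromosomes, so many genes survive in duplicate, the copies being named .L and .S after the long and short chromosome sets. The kidney tubule is lined by a simple epithelium joined by cadherins and tight junctions, and each segment carries its own transporters. Cells kept in culture on plastic with serum divide, spread on actin cables and may carry genes of a connective tissue program beside those of the epithelium.

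The cultures were described by the labels as biological replicates, grown to about 90% confluence at 29 degrees in medium with 20% fetal bovine serum and 5% CO2. The 3 vehicle cultures received 0.25% DMSO, the solvent, for 3 h. The other 6 of the 9 arrays, 3 after 100 nM TCDD and 3 after 100 nM FICZ in the same solvent, entered the normalization only. Since every array comes from 1 line, the spread below is that between cultures of the line and not between animals.

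Each value below is a log2 signal after quantile normalization, and a percentile is a gene's position among the 9304 named probe sets of an array, averaged over the 3 arrays. Where a gene had several probe sets, the one of highest mean was taken. A probe set's signal depends on how well its probes bind as well as on the amount of transcript, so a rank is a rank of signal. Sets of 3 values are in the order of replicates 1, 2 and 3.

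Expression stretched over the whole scale of the arrays. The median gene had a signal of 7.54, and the genes just above it included slc50a1.L, a sugar transporter, with 7.64, 7.34 and 7.65. At the low end hes5.1.L, htr1a.L and mfap2.L were listed at the floor of 0 on all 3 arrays. As a measure of background, 20 probe sets for sequences that frog RNA does not hold (17 artificial tags and 3 fluorescent reporters) were read on the same arrays. The highest tag was at 5.33, 5.43 and 5.78. The limit used was the highest of all 20, the same fluorescent reporter on each array, at 6.03, 5.61 and 6.24. Of all 7531 genes, 4997 (66.4%) lay above that limit on all 3 arrays, 1960 (26%) lay at or below it on all 3, and the other 574 were split between arrays. A gene at or below the limit cannot be told from background here, which is not the same as being absent. This measure was chosen after the values had been seen.

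**Figure D1:**
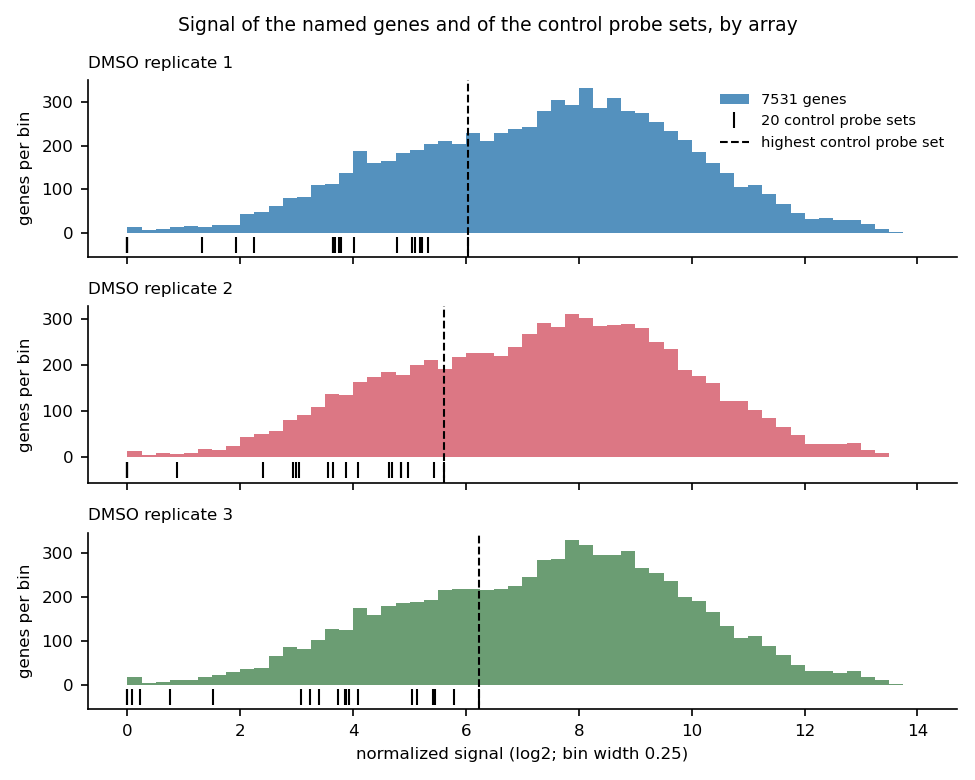
Histograms of normalized log2 signal of the 7531 genes on each vehicle array (x axis log2 signal, y axis genes per bin), with the 20 control probe sets as ticks below and the highest of them as a dashed line at 6.03, 5.61 and 6.24. The control probe sets lie in the lower part of every histogram, and 4997 genes lie above the line on all 3 arrays.

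Genes were then sorted by signal. The upper 25% (percentile over 75 on each of the 3 arrays) held 1846 genes (24.5% of all), and the lower 25% (percentile under 25 on each) held 1523 genes (20.2%). The median percentile of all genes was 52.7, over 50 because a gene took the higher of its probe sets. These shares are the background for the 42 function lists and 13 marker lists below. Of the lists, 16 had a median percentile over 75, 9 had one under 25 and 17 lay between. With percentiles over all non-control probe sets, named or not, 19 had one over 75 and 2 had one under 25.

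The protein synthesis machinery stood at the top of the ranking. Among the 25 genes with the highest mean signal, 18 encode ribosomal proteins and 3 are translation factors. The first was rps27.S, a protein of the small ribosomal subunit, with 13.54, 13.46 and 13.54. It was followed by rps13.L with 13.52, 13.50 and 13.50, and by rps29.S with 13.44, 13.52 and 13.35. The translation factors among the 25 were eef1a1.S, which brings charged tRNAs to the ribosome, with 13.37 on each array, eif5a.L with 13.30, 13.30 and 13.25, and eef2.1.L, which moves the ribosome along the message, with 13.00, 13.19 and 12.96. The remaining 4 were vim.L (vimentin) with 13.12, 13.17 and 13.14, cirbp.S, the cold-inducible RNA-binding protein, with 13.17, 13.08 and 13.19, casc3.S, of the exon junction complex, with 13.16, 13.16 and 13.17, and the unnamed XB5843130.S with 13.09, 13.16 and 13.23. The SDs at this end are small in part by construction, because quantile normalization gives the same value to the same rank on every array.

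Ribosomal protein genes were in the upper 25% in 69 of 71 cases, with a median percentile of 99.3. The exceptions were rps10.L with 6.18, 6.28 and 6.69, and rpl28.L with 3.95, 3.60 and 3.77, which stayed below the control limit on every array. The copy rpl28.S was at 12.44, 12.42 and 12.55. Translation factors were in the upper 25% in 45 of 52 cases (median percentile 94.5). At their low end were eef1a1o.S, a form of elongation factor 1 alpha named for the oocyte, with 2.80, 3.54 and 3.39, and eef1a2.S with 6.26, 5.51 and 6.12. Genes of ribosome assembly had 32 of 55 members in the upper 25% and 0 in the lower, led by the nucleolar proteins npm1.L (12.52 ± 0.06) and ncl.S (12.26 ± 0.13; SD, n = 3 here and below). Of the genes for amino acid synthesis, polyamine synthesis and tRNA charging, 27 of 39 were in the upper 25%, led by oaz1.S, which restrains polyamine synthesis, with 12.42 ± 0.07.

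**Figure D2:**
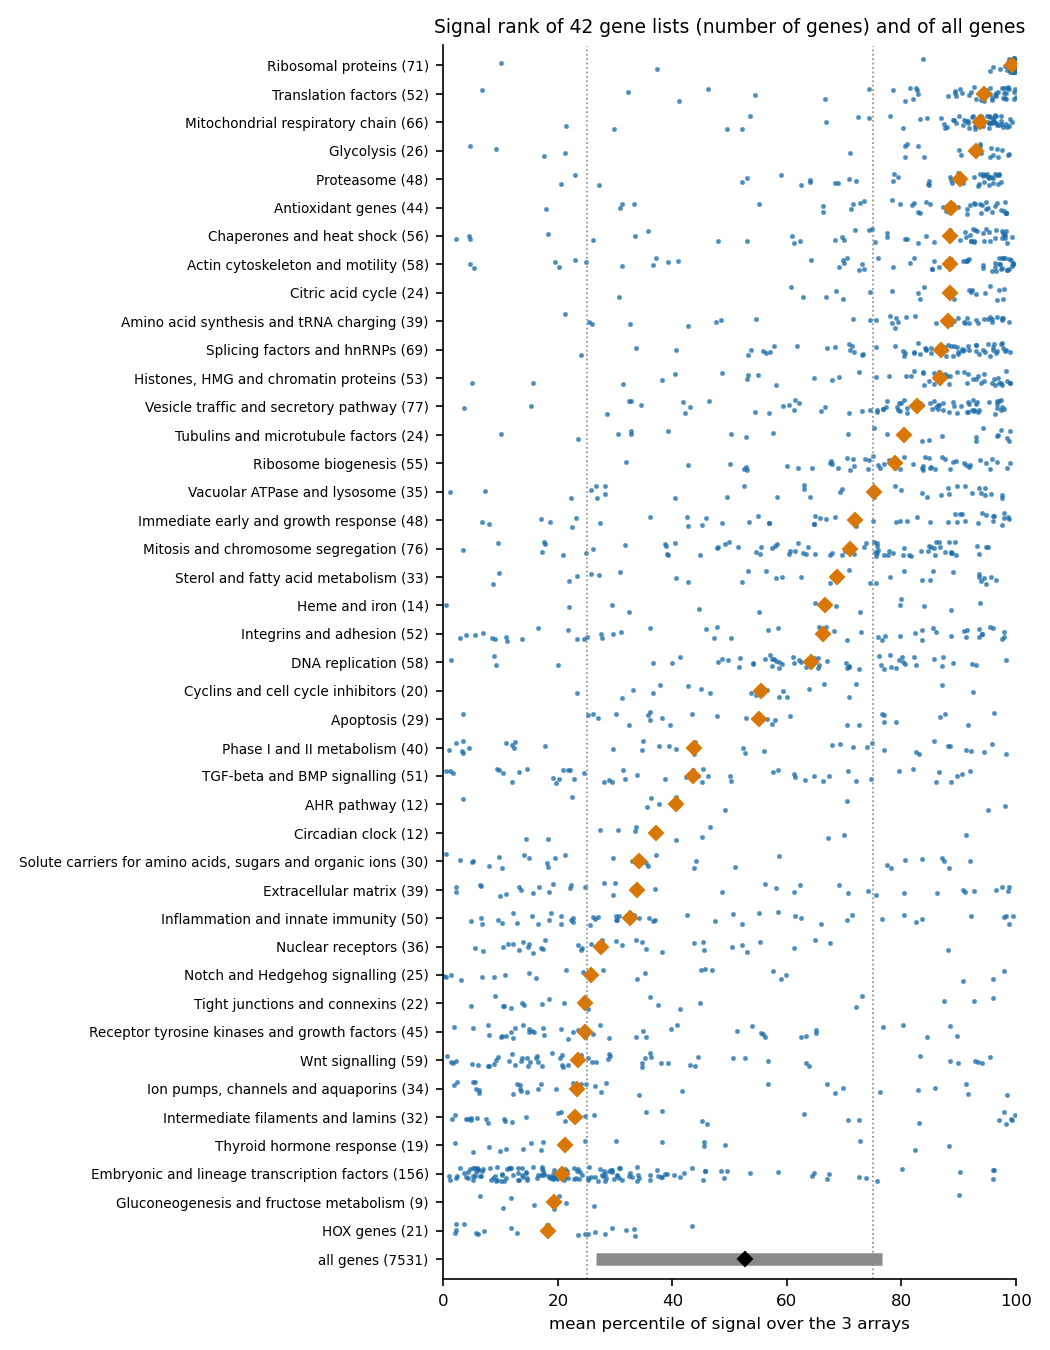
Mean percentile of signal (x axis) of each gene in 42 function lists (blue points, 1 row per list, number of genes in brackets) with the list median as an orange diamond, and below them the quartiles (grey bar) and median (black diamond, 52.7) of all 7531 genes. Ribosomal proteins sit at the right edge (median 99.3) and HOX genes at the left (median 18.3).

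Energy metabolism was represented by the respiratory chain and by glycolysis together. Respiratory chain genes were in the upper 25% in 58 of 66 cases and in the lower 25% in 0 (median percentile 93.7). The ATP synthase subunits led: atp5f1b.S had 12.81, 12.73 and 12.79, atp5mc3.S had 12.56, 12.57 and 12.55, and atp5f1a.L had 12.43, 12.56 and 12.41. The lowest were both copies of cox4i2, a tissue-restricted form of a cytochrome oxidase subunit, with means of 5.75 (.L) and 4.98 (.S). Genes listed for the citric acid cycle were in the upper 25% in 16 of 24 cases, and the lowest was ogdh.S at 5.83 ± 0.41. The highest listed was mdh1.S, the cytosolic malate dehydrogenase, at 11.93 ± 0.12. The mitochondrial form mdh2.S was at 11.62 ± 0.06.

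Glycolytic genes were in the upper 25% in 21 of 26 cases (median percentile 92.9), and the other 5 members included all 4 in the lower 25%. The top members were gapdh.L with 12.47, 12.27 and 12.46, eno1.L (enolase) with 12.34, 12.38 and 12.39, and aldoa.S (aldolase) with 11.86, 11.78 and 11.72. The low members were the muscle forms eno3.L (2.22, 2.12 and 3.73) and pgam2.L (4.60, 4.37 and 4.87), the hexokinase hk2.L (4.05, 2.52 and 4.04) and the glucose transporter slc2a3.L (5.23, 4.76 and 4.94). The other hexokinase measured, hk1.L, was at 8.72 ± 0.24, and the glucose transporter slc2a1.L at 9.41 ± 0.11.

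Gluconeogenesis, a task of the proximal tubule and the liver, showed the opposite picture. Of 9 genes measured, 8 lay at or below the control limit on all 3 arrays and 6 lay in the lower 25%. Among them were pck1.L, which starts the pathway from oxaloacetate, with 4.89, 4.83 and 4.93, and pck1.S with 2.80, 2.96 and 3.74. The glucose-6-phosphatase genes ran from g6pc1.2.S at 5.44 ± 0.10 to g6pc1.1.L at 3.79 ± 0.18. The exception was fbp1.L, fructose-1,6-bisphosphatase, with 10.42, 10.08 and 10.49.

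Protein turnover and folding genes were high. Proteasome genes were in the upper 25% in 35 of 48 cases and in the lower in 0 (median percentile 90.2). The lowest were psmb8.L (4.91 ± 0.39) and psmb9.S (5.53 ± 0.07), which in mammals encode subunits of the immunoproteasome, and psmc3.S (5.13 ± 0.56), whose copy psmc3.L was at 7.52 ± 0.14. Chaperones were in the upper 25% in 36 of 56 cases. The first were hspa1l.S, of the HSP70 family, with 12.76, 12.81 and 12.81, and p4hb.L, protein disulfide isomerase, with 12.27, 12.43 and 12.16. The small heat shock protein hspb1 was below the control limit on every array in both copies, with 3.13, 2.01 and 3.16 for .L and 2.87, 0.96 and 3.51 for .S. The lowest chaperone was hspa4.S, with 2.68, 1.87 and 1.42. Genes of vesicle traffic had 52 of 77 members in the upper 25%, led by the coat protein copb2.S at 11.90 ± 0.05. Vacuolar ATPase and lysosome genes had 17 of 35, from atp6v1g1.S at 11.76 ± 0.15 down to atp6v0a4.L at 1.45 ± 0.56. The genes atp6v0a4.L and atp6v1b1.L (3.31 ± 0.49) encode forms of the pump known from acid-secreting cells of the mammalian kidney.

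RNA processing and chromatin genes were likewise high. Splicing factors were in the upper 25% in 50 of 69 cases and in the lower in 0. The first was srsf2.L with 12.54, 12.57 and 12.46, and the lowest was hnrnpa2b1.L with 4.77, 5.41 and 5.52. Histones, HMG and other chromatin proteins had 38 of 53 genes in the upper 25%, led by the histone chaperone nap1l1.L at 12.53 ± 0.05. The nucleoplasmin npm2, known as the histone store of the Xenopus egg, was low: npm2.L was at 6.63 ± 0.33 and npm2.S at 2.43 ± 1.55.

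Genes of dividing cells were present at middle to high levels. Of 58 DNA replication genes, 53 lay above the control limit on all 3 arrays, 18 were in the upper 25% and 4 in the lower (median percentile 64.2). The sliding clamp pcna.L had 12.06, 12.01 and 12.16, and the helicase subunit mcm2.L had 10.59, 10.66 and 10.66. The lowest of the list was mcm6.L, of the same helicase, with 1.32, 1.71 and 2.03, whereas the related gene mcm6.2.L was at 8.34 ± 0.32. Of 76 mitosis genes, 66 lay above the limit and 28 were in the upper 25% (median percentile 71.0). The kinesin kif20a.L had 10.81, 11.28 and 11.15, the kinase plk1.S had 10.76, 10.87 and 10.86, and cdk1.L had 10.72, 10.90 and 10.73. The lowest were birc5.L (2.54 ± 0.33) and the cyclin A1 copies ccna1.L (3.67 ± 0.25) and ccna1.S (4.61 ± 0.21). Of 20 cyclins, partner kinases and E2F genes, 17 lay above the limit but only 2 were in the upper 25%, the cyclins ccng1.L (10.69 ± 0.25) and ccnd1.L (9.99 ± 0.17).

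The cytoskeleton was led by actin and its partners. Actin cytoskeleton genes were in the upper 25% in 38 of 58 cases (median percentile 88.5). The cytoplasmic actin actg1.L had 12.87, 12.94 and 12.84, and actb.L had 12.84, 12.92 and 12.84. The annexins anxa1.1.S (12.86 ± 0.04), anxa2.L (12.73 ± 0.06) and anxa2.S (12.66 ± 0.02), which link membranes to actin, followed. At the low end, cnn1.S (2.82 ± 0.46) and actn2.S (2.96 ± 0.46) are known from smooth muscle and striated muscle. Of 24 tubulins and microtubule factors, 14 were in the upper 25%, led by tubb4b.L at 12.51 ± 0.02. The neuronal factor mapt.L was at 3.67 ± 0.69.

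Intermediate filament genes were split. Of 32 genes, 7 were in the upper 25% and 16 in the lower (median percentile 22.9). The 7 were vim.L, vim.S, krt8.1.S, krt18.1.L, krt19.S, krt19.L and krt70.S. The neuronal filament gene prph was low in both copies (2.58 ± 0.56 for .L and 2.80 ± 0.64 for .S), as was krt12.6.S (1.58 ± 0.77).

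Matrix genes were a mixture as well, with 9 of 39 (23.1%) in the upper 25% and 12 (30.8%) in the lower (median percentile 33.8). The shares of all genes were 24.5% and 20.2%. High members were the matricellular proteins ccn1.S (12.50, 12.27 and 12.45) and ccn2.L (12.31, 12.45 and 12.24), tgfbi.L (11.82, 11.86 and 11.60) and the gelatinase mmp2.S (11.41, 11.47 and 11.48). Low members included the metalloproteinases mmp9.1.S (2.04 ± 0.50) and mmp3.L (2.09 ± 0.35). Integrin and adhesion genes had 19 of 52 members in the upper 25%. They included the tetraspanins cd63.S (11.93 ± 0.01), cd63.L (11.87 ± 0.10) and cd9.S (11.78 ± 0.07), and itgb1.L, the integrin beta 1 subunit, at 11.31 ± 0.06.

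Among 22 tight junction and connexin genes, 13 lay at or below the control limit on all 3 arrays and 3 were in the upper 25% (median percentile 24.8). These 3 were cldn5.L (11.26, 11.32 and 11.32), cldn5.S (10.75, 10.66 and 10.68) and the junction protein cingulin, cgn.L (9.92, 10.52 and 9.74). Claudin 5 is best known from the mammalian endothelium. Occludin, ocln.S, had 4.89, 4.45 and 4.40. Of the connexins, gjb2.L had 8.67, 9.14 and 8.56, whereas gja1.L had 2.07, 3.69 and 2.42.

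Few of the kidney segment markers that could be read rose above background. The proximal tubule list named 11 markers and the podocyte list 5, and most of both were not measured. All 3 proximal tubule markers measured lay below the control limit on every array: the brush border enzymes ggt1.L (5.09, 5.43 and 4.84) and anpep.L (3.99, 3.93 and 4.33), and the transcription factor hnf4a.S (3.59, 4.28 and 3.42). Of 12 markers of the loop, distal tubule and collecting duct, 1 lay above the limit on all 3 arrays, the water channel gene aqp2.S, with 6.23, 5.89 and 6.27 against limits of 6.03, 5.61 and 6.24. The subunits of the epithelial sodium channel, through which distal tubules take up salt, lay below the limit in all 5 genes measured, from scnn1b.L at 4.54 ± 0.57 to scnn1b.S at 1.98 ± 0.25. The acid-secreting cell factor foxi1.L was at 2.97 ± 0.14. The sole podocyte marker measured, wt1.L, lay above the limit on all 3 arrays, with 6.19, 6.39 and 6.57. All of these segment markers but hnf4a.S were read by 1 probe set, and one that binds poorly would look the same. Whether the line has lost its kidney identity was therefore not tested.

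Of 6 genes that mark the kidney lineage during development, 0 lay above the limit on all 3 arrays. The closest was pax2.L, with a mean of 6.10 ± 0.10, the highest of 8 probe sets whose means ran down to 2.02. The others were osr1.L (5.80 ± 0.21), sall1.L (5.54 ± 0.31), pax8.L (5.39 ± 0.53), irx3.L (4.92 ± 0.25) and lhx1.L (3.85 ± 0.34). The count depends on the limit, since pax2.L and osr1.L lay above the highest tag probe set on all 3 arrays (5.33, 5.43 and 5.78).

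Of 17 pan-epithelial genes, 4 were in the upper 25%, all of them simple-epithelium keratins. They were krt8.1.S (12.71, 12.78 and 12.74), krt18.1.L (12.67, 12.68 and 12.63), krt19.S (12.24, 11.97 and 12.21) and krt19.L (11.83, 11.43 and 11.55). Another 3 lay above the control limit at middle levels. They were cldn7.L (6.71 ± 0.06, its other probe sets at 4.77 and 4.00), krt18.1.S (6.46 ± 0.27) and the splicing regulator esrp1.L (6.27 ± 0.35). The other 10 lay at or below the limit on all 3 arrays. E-cadherin, cdh1.S, an adhesion molecule of epithelia, had 3.12, 2.75 and 1.81. The adhesion molecule epcam was below the limit in both copies, with 4.85, 4.39 and 4.12 for .L and 4.65, 4.62 and 3.51 for .S. Each was read by 1 probe set, so a probe set that binds poorly would look the same. The other E-cadherin copy, cdh1.L, was not among the genes measured, so cdh1.S alone does not give the level of E-cadherin.

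Fibroblast and mesenchymal markers held the largest share of high genes among the 13 marker lists, with 8 of 21 in the upper 25%. Copies were counted separately: both copies of vim, cdh2 and sparc are among the 8, as both of krt19 are in the pan-epithelial list. The median percentile was 63.4 against 52.7 for all genes. The 13 that lay above the limit (61.9%) were a smaller share than the 66.4% of all genes. With the median over a gene's probe sets in place of the highest, the median percentile of the list was 44.7. Vimentin had 13.12, 13.17 and 13.14 for vim.L and a mean of 11.94 ± 0.10 for vim.S. N-cadherin, listed here as a mesenchymal marker, had 10.46, 10.94 and 10.23 for cdh2.S and 10.43, 10.68 and 10.23 for cdh2.L. However, the other probe sets of cdh2.L averaged 7.03 and 3.67. Collagen I alpha 1, col1a1.S, had 10.44, 10.58 and 10.22, and the mesenchymal cadherin cdh11.S had 9.81, 9.57 and 9.61. The matrix protein sparc had means of 10.68 (.L) and 9.90 (.S).

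The same list had 7 members at or below the limit on all 3 arrays. They included the repressors of E-cadherin snai1.S (3.45, 4.08 and 3.15), snai2.L (3.50, 4.02 and 2.61) and snai2.S (3.34, 2.10 and 3.97). Another such repressor of the list, zeb2.S, lay above the limit on all 3 arrays, with 6.45, 7.37 and 7.10. Smooth muscle actin, acta2.L, had 3.87, 4.07 and 4.09, and the second chain of collagen I, col1a2.L, had 4.32, 4.37 and 3.83. Keratins and vimentin were therefore both near the top of the ranking on all 3 arrays, while the cdh1.S probe set and the snai genes were at background level. Bulk RNA does not show whether the same cells held both, and fewer cells of a type cannot be told apart from less RNA per cell.

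**Figure D3:**
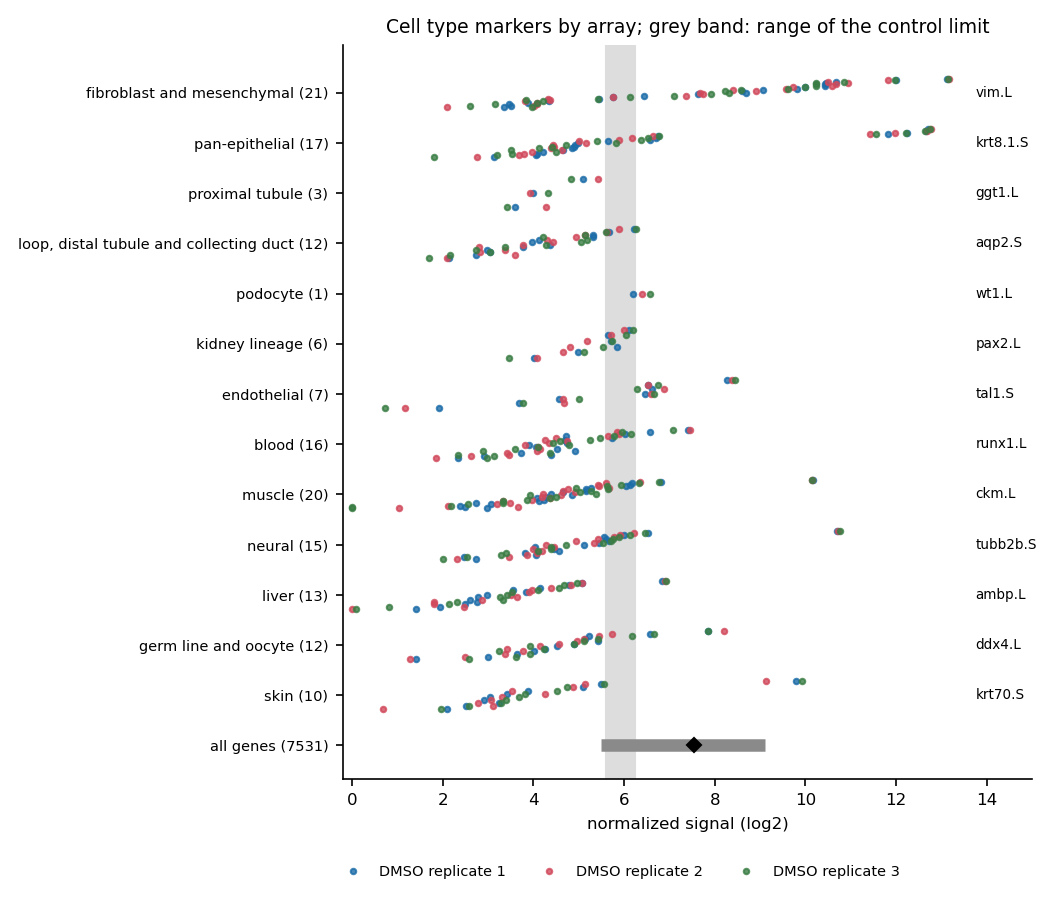
Normalized log2 signal (x axis) of 13 lists of cell type markers (rows, number of genes in brackets), 1 point per gene and array coloured by replicate, with the highest gene of each list named at the right and all genes (quartiles and median) at the bottom. The grey band spans the control limits of the 3 arrays, 5.61 to 6.24; vim.L and krt8.1.S lie far to its right, and the proximal tubule points lie to its left.

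Markers of other tissues were mostly at background, with the endothelial list as the exception. In that list 57.1% lay above the limit on all 3 arrays, against 66.4% of all genes. Of 16 blood markers, 1 lay above the limit on all 3 arrays, runx1.L with 7.42, 7.45 and 7.08, and the leukocyte gene ptprc.L had 2.92, 2.63 and 3.14. Among the globins the highest was hbg1.L, with 6.57, 5.83 and 5.94. Of 7 endothelial genes 4 lay above the limit: tal1.S (8.37 ± 0.09, its other probe set at 5.15), pecam1.L (6.60 ± 0.12), fli1.S (6.59 ± 0.30) and lmo2.S (6.57 ± 0.10), whereas tek.S was at 4.04 ± 0.55 and erg-b at 1.27 ± 0.60. Of 20 muscle genes 3 lay above it, with ckm.L (creatine kinase) at 10.15 ± 0.01. The other probe sets of ckm.L averaged 6.03 and 4.23, and the muscle determination genes myod1.L (5.82 ± 0.37) and myf5.L (3.59 ± 0.45) did not pass it on all 3 arrays.

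Of 15 neural markers, tubb2b.S (10.73 ± 0.03), a beta tubulin, and neurod1.L (6.41 ± 0.16) lay above the limit on all 3 arrays. Of 13 liver genes 1 did so, ambp.L, at 6.89 ± 0.05 for the highest of 5 probe sets whose lowest mean was 1.45. Of 12 germ line genes, ddx4.L (7.97 ± 0.21), the vasa helicase, and ddx25.L (6.33 ± 0.51) did. Of 10 skin genes 1 did, krt70.S, with 9.80, 9.14 and 9.94.

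Transport genes of the kidney were low as a group. Of 34 ion pumps, channels and aquaporins, 20 lay at or below the limit on all 3 arrays, 16 were in the lower 25% and 5 in the upper (median percentile 23.3). The 5 included subunits of the sodium-potassium pump, atp1b3.S (12.27, 11.98 and 12.30), atp1b1.S (10.48 ± 0.11) and atp1b3.L (9.61 ± 0.17), as well as the calcium pump atp2a2.S (10.53 ± 0.06) and clic4.S (9.87 ± 0.08). The sodium pump regulator of the renal tubule fxyd2.S had 2.06, 1.81 and 2.64. Of 30 solute carriers, 6 were in the upper 25% and 13 in the lower. The high ones serve amino acid and glucose uptake, with slc3a2.S (10.63, 10.63 and 10.46) and slc7a5.L (10.12, 10.19 and 10.07), which together form an amino acid exchanger, at the top. The low ones included the peptide carrier slc15a2.L (1.14, 0.61 and 0.20) and slc22a8.S (2.19 ± 0.87), an organic anion carrier of the mammalian kidney.

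The components of the aryl hydrocarbon receptor (AHR) pathway, through which cells sense TCDD and FICZ, were at widely different levels. A probe set named for the receptor gene itself was not analysed here. The chaperones that hold the receptor in the cytoplasm were high, with hsp90ab1.S at 11.95, 11.79 and 12.19 and ptges3.L (p23) at 11.13 ± 0.12. Its partner arnt.L was at 6.65, 6.95 and 6.44, above the limit on each array. The target gene cyp1a1, a cytochrome P450, was just above the limit in vehicle-treated cells in both copies, with 7.01, 6.32 and 6.60 for .L and 6.87, 6.15 and 6.25 for .S. The glucuronidation gene ugt1a6.S was at 2.21, 3.13 and 1.83. Of 12 pathway genes, 9 (75%) lay above the limit on all 3 arrays and 2 (16.7%) were in the upper 25%. The shares of all genes were 66.4% and 24.5%.

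Phase I and II metabolism spanned the scale, with 10 of 40 genes in the upper 25% and 11 (27.5%) in the lower. The shares of all genes were 24.5% and 20.2%. High members were the glutathione transferases gstm1.S (12.08 ± 0.18), mgst1.L (11.28 ± 0.13) and gsta1.S (10.51 ± 0.33), and the acetyltransferase nat1 (10.64 ± 0.31). Low members included the retinoid enzymes aldh1a1.L (2.07 ± 0.59) and cyp26a1.S (1.32 ± 0.71). Another retinoid enzyme, aldh1a2.L, was at 9.58 ± 0.24 by its highest probe set, with the other at 3.33. Antioxidant genes were high, with 32 of 44 in the upper 25% (median percentile 88.7). They were led by taldo1.L (12.11 ± 0.15) of the pentose phosphate pathway, the glutathione peroxidases gpx1.L (12.10 ± 0.08) and gpx4.L (12.08 ± 0.13), and the peroxiredoxin prdx1.L (11.97 ± 0.12). Of 33 sterol and fatty acid genes 12 were in the upper 25%, led by the desaturase scd.S (11.42 ± 0.11), and of 14 heme and iron genes 5 were, led by the heme oxygenase hmox1.S (10.89 ± 0.08).

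Signalling genes were low in most of their lists, with a few members near the top. Of 45 receptor tyrosine kinases and growth factors, 5 were in the upper 25% and 20 in the lower. The highest were the growth factor midkine, mdk.L (10.56, 9.91 and 10.40), and the ephrin receptor epha2.L (10.02, 10.54 and 9.96). TGF-beta and BMP genes lay nearer the middle (median percentile 43.6), with 28 of 51 (54.9%) above the limit on all 3 arrays, against 66.4% of all genes. In this list 14 genes were in the lower 25%. Another 8 were in the upper 25%, led by the ligand bmp2.S (10.64, 10.61 and 10.51) and the BMP-responsive id3.S (10.41 ± 0.27). The lowest were grem1.L, a BMP antagonist, with 0.00, 1.60 and 0.00, and fstl1.L at 1.44 ± 0.70.

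Of 59 Wnt genes, 37 lay at or below the limit on all 3 arrays and 7 were in the upper 25%. Those 7 were both copies of ctnnb1, the transducer beta-catenin (11.20 ± 0.10 for .L and 10.95 ± 0.18 for .S), the kinase csnk1a1.L (10.80 ± 0.18), both copies of the Wnt sorting receptor wls (10.72 ± 0.06 for .L and 9.64 ± 0.19 for .S), tcf3.L (10.31 ± 0.23) and the receptor fzd7.L (10.14 ± 0.10). Another receptor, fzd10.L, was at 0.94 ± 0.18. The symbol tcf3 also names the E2A factor, which is not a Wnt component, so tcf3.L may not belong to this list. Its highest probe set exceeded the next by a mean of 3.20. The probe sets of fzd7.L disagreed as well, the others averaging 8.99, 8.14, 7.16 and 5.40. Of 25 Notch and Hedgehog genes, 3 were in the upper 25%, the repressors hes1.S (12.02, 11.76 and 11.98), hes4.L (11.61, 11.15 and 11.26) and hes4.S (10.42 ± 0.19). The Hedgehog ligands shh.L (3.81 ± 0.44), ihh.S (3.53 ± 0.56), dhh.S (4.46 ± 0.16) and dhh.L (1.40 ± 1.15) all lay below the limit.

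Of 36 nuclear receptors 1 was in the upper 25%, nr4a1.L, itself an immediate early gene, with 10.07, 9.91 and 10.34. Of 19 genes of the thyroid hormone response, which drives frog metamorphosis, 10 were in the lower 25%. The hormone-inactivating deiodinase dio3.L had 9.60, 9.47 and 9.61, the receptor thra.L had 7.13, 6.94 and 7.09, and the activating deiodinase dio2.L was at 4.97 ± 0.45. Of 12 clock genes, csnk1d.S (10.48 ± 0.17) was in the upper 25%, and clock.L (4.27 ± 0.22) and dbp.L (4.67 ± 0.31) were in the lower.

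Immediate early and growth response genes, which serum and stress induce within minutes to hours, were above the limit in 41 of 48 cases and in the upper 25% in 22 (median percentile 71.9). Beside ccn1.S and ccn2.L, egr1.L had 12.05, 11.85 and 11.98, and cebpb.L had 11.76, 11.99 and 11.65. The low end held srf.L (5.10 ± 0.11), egr2.L (4.72 ± 0.28), klf9.L (3.43 ± 0.27) and hes1.L (3.26 ± 0.22). Of 50 inflammation and innate immunity genes, 8 were in the upper 25%, led by the galectin lgals1.1.S (12.96, 12.81 and 13.01), the transglutaminase tgm2.S (12.39, 12.55 and 12.37), lgals3.L (12.09 ± 0.16) and the chemokine cxcl14.L (11.85, 12.22 and 11.78). Of 29 apoptosis genes 21 lay above the limit (72.4%, against 66.4% of all genes), led by cytochrome c, cycs.S, at 11.36 ± 0.15.

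Transcription factors of embryonic patterning were the most numerous low group. Of 156 genes, 107 lay at or below the limit on all 3 arrays, 80 were in the lower 25% and 5 in the upper (median percentile 20.7). The 5 were gata6.L (11.23, 11.53 and 11.27), klf6.L (11.27, 11.43 and 11.22), myc.S (11.37, 11.28 and 11.26), myc.L (10.35, 10.36 and 10.35) and pax3.L (9.31, 9.28 and 9.49). The endodermal and mesodermal factor gata4.L was close behind with 9.02, 8.94 and 9.12. The probe sets of pax3.L, a neural crest and muscle precursor factor, disagreed, with means of 9.36, 8.41, 4.80 and 3.98. Of 21 HOX genes, which set position along the body axis, 0 were in the upper 25%, 11 were in the lower, and 2 lay above the limit on all 3 arrays. These were hoxb9 (7.06, 6.73 and 6.83) and hoxd8.L (6.15, 5.75 and 6.31).

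Copies were compared in the 1017 genes with a named probe set for both .L and .S. The .L gene was higher by over 1 on the log2 scale, a doubling of signal, on all 3 arrays in 265 pairs (26.1%), and the .S gene was in 216 pairs (21.2%). Copies at or below the control limit entered at their listed signal, so a difference from such a copy is not a measured fold. The median of .L minus .S was 0.16, and .L was the higher in 545 pairs. Across the single genes, 23.4% of those named .L and 27.0% of those named .S were in the upper 25%, and 66.3% and 67.8% lay above the control limit. The 268 genes without a suffix had 15.3% in the upper 25% and 51.1% above the limit.

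Differences between copies were of about the same size as those between probe sets for the same copy. Among 748 pairs with 1 probe set for each copy, the median absolute difference was 1.16 and 47.2% differed by over 1 on all 3 arrays. Among 944 copies read by exactly 2 probe sets, the median absolute difference between those was 1.11 and 45.0% differed as much. For the 1253 copies with 2 or more probe sets, the 2 highest differed by over 1 on all 3 arrays in 507 cases (40.5%). A difference in signal between .L and .S in 1 pair may therefore come from the probes as well as from the transcripts, and the array does not separate these.

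**Figure D4:**
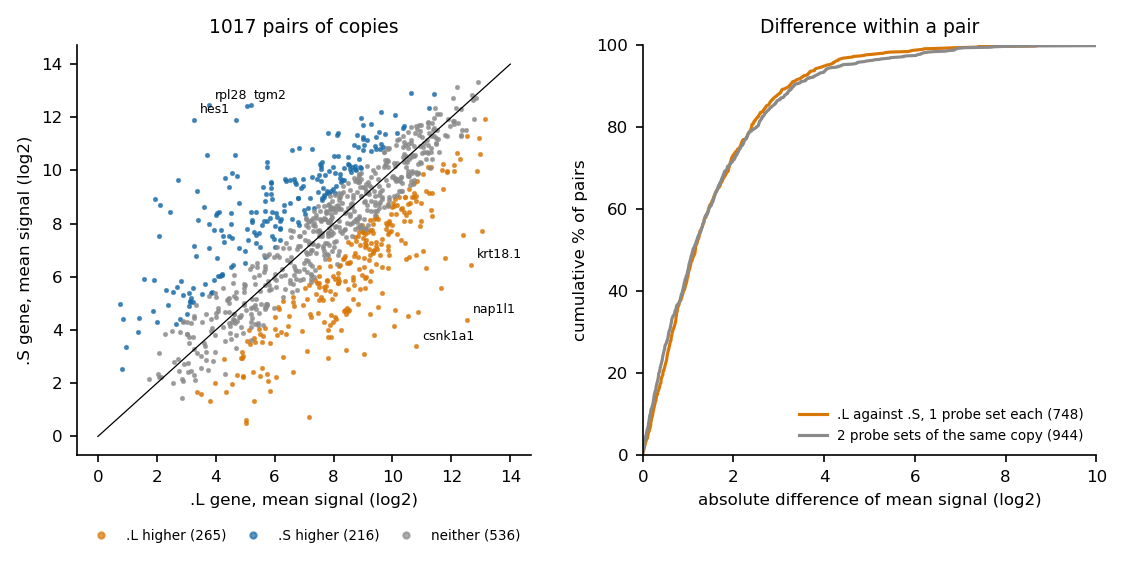
Left, mean log2 signal of the .L gene (x axis) against the .S gene (y axis) for 1017 pairs, coloured by whether .L (265) or .S (216) was higher by over 1 on all 3 arrays, with the line of equal signal and the 3 pairs of largest listed difference each way named. Right, cumulative percentage (y axis) of pairs below an absolute log2 difference (x axis) for .L against .S (orange, 748 pairs) and for 2 probe sets of the same copy (grey, 944 copies); the curves run together.

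In 33 pairs each copy was read by at least 2 probe sets, so their ranges can be set side by side. With so few probe sets, full separation can also arise without a difference between the copies, and how often was not tested. All probe sets of one copy lay above all of the other in 15 of these, 8 with .L above and 7 with .S above. For eif3a, a subunit of translation initiation factor 3, the .L probe sets averaged 11.09 to 11.80 and the .S probe sets 6.65 to 6.70, both above the control limits. For the zinc transporter slc30a6 they averaged 3.79 to 4.51 for .L, which is below the control limits, and 8.30 to 8.42 for .S. For dnajb11, a chaperone of the endoplasmic reticulum, the .L probe sets averaged 8.80 to 8.98 and the .S probe sets 5.74 to 6.07, within the range of the control limits. For itga5, the fibronectin receptor subunit, they averaged 7.32 to 8.84 for .L and 1.80 to 5.00 for .S, below the limits. In other pairs the ranges overlapped, as for myc (10.20 to 10.35 for .L and 6.92 to 11.30 for .S) and hnrnpa1 (11.08 to 11.77 for .L and 6.79 to 11.32 for .S).

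The pairs with the largest listed differences, among those with the higher copy in the upper 25%, mostly set a high copy against one at background. With .L higher they were nap1l1 (12.47, 12.58 and 12.53 for .L, and 4.38, 4.11 and 4.69 for .S), csnk1a1 (10.67, 11.01 and 10.73 for .L, and 4.00, 3.41 and 2.80 for .S) and krt18.1 (12.67, 12.68 and 12.63 for .L, and 6.69, 6.17 and 6.52 for .S). Others were ssb, the La RNA-binding protein (mean 10.87 for .L and 4.69 for .S), the mitochondrial carrier ucp2 (11.65 and 5.59), the oxygen sensor egln3 (10.53 and 4.55), the protease furin (10.07 and 4.17) and pax3 (9.36 and 3.82). With .S higher they were rpl28, whose values are given above, hes1 (3.01, 3.42 and 3.36 for .L, and 12.02, 11.76 and 11.98 for .S) and tgm2 (5.68, 4.10 and 5.45 for .L, and 12.39, 12.55 and 12.37 for .S). Others were tuba1c (mean 5.19 for .L and 12.46 for .S), the mitochondrial chaperone hspd1 (4.68 and 11.89), krt70 (2.74 and 9.62) and bmp2 (3.71 and 10.59). In each of these pairs but krt18.1 the low copy lay below the control limit on every array, so the size of the difference and the order of the pairs are not measured. The low copy of each of these 15 pairs was read by 1 probe set. In some the weakest probe set of the higher copy lay near the low copy, as for krt70.S (3.34), furin.L (5.01) and pax3.L (3.98), so that the difference rests on the choice of the highest probe set. A further pair with a large difference, cnfn.1, had both copies above the limit on every array. Its values were 13.05, 13.00 and 13.06 for .L, and 8.07, 7.22 and 7.87 for .S, with 1 probe set for each copy.

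By function, copies lay close together among vacuolar ATPase and lysosome genes (7 pairs, median absolute difference 0.41), respiratory chain genes (13 pairs, 0.54), ribosomal proteins (8 pairs, 0.55) and histone and chromatin genes (16 pairs, 0.57), against 1.16 for all pairs. They lay farther apart among Notch and Hedgehog genes (5 pairs, 3.06), heme and iron genes (3 pairs, 2.72), solute carriers (4 pairs, 2.70) and phase I and II genes (5 pairs, 2.48). With so few pairs in a list, and with copies at background entered at their listed signal, these medians are descriptions only. Ribosomal protein and respiratory chain genes also lay near the top of the scale (median percentiles 99.3 and 93.7). How far the level of a list sets its median difference was not tested. In both copies 195 pairs were in the upper 25% and 112 in the lower. In 9 pairs .L was in the upper 25% with .S in the lower, and in 10 pairs the reverse held.

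The 3 arrays agreed closely. Pearson's r across the 9304 probe sets, which are not independent replicates, was 0.983 between replicates 1 and 2, 0.987 between 1 and 3 and 0.979 between 2 and 3. The median absolute difference was 0.26, 0.17 and 0.28 for these pairs in the same order. The median SD of a probe set was 0.20 and depended on its level. It was 0.36 in the lowest 25% of signal, 0.22 in the second, 0.18 in the next and 0.14 in the highest. Of the 851 probe sets (9.15%) with an SD over 0.5, 714 were in the lowest 25%.

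**Figure D5:**
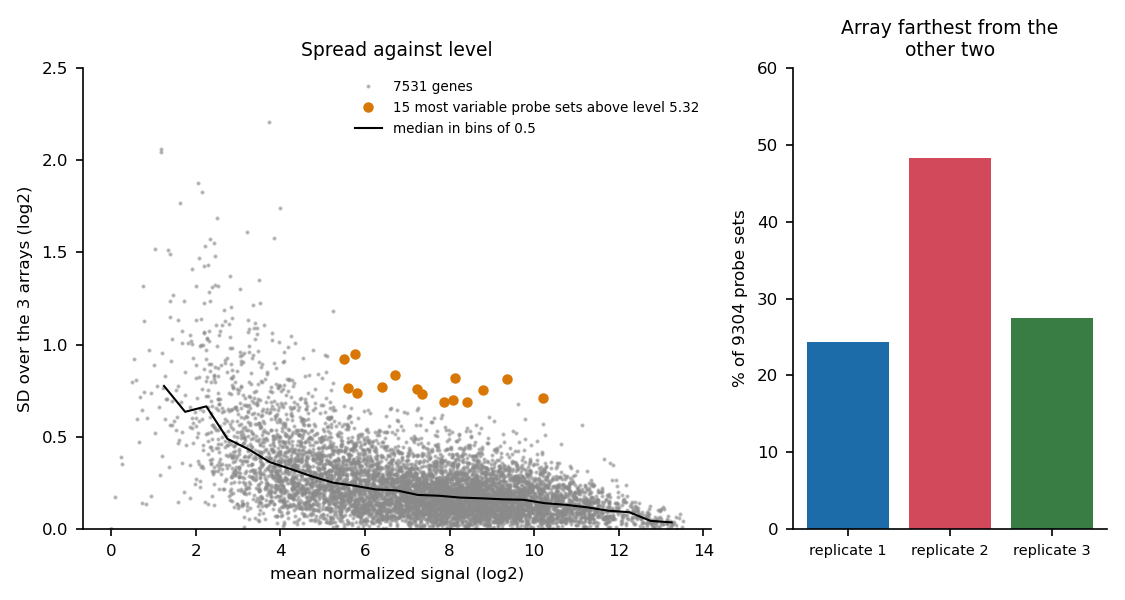
Left, SD over the 3 vehicle arrays against mean log2 signal for 7531 genes (grey), with the median in bins of level (black line) and the 15 probe sets of largest SD above level 5.32 (orange); the spread falls as the signal rises. Right, share of the 9304 probe sets in which each array was the farthest from the other pair, with replicate 2 at 48.2%.

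Replicate 2 stood somewhat apart. It was the array farthest from the other pair in 48.2% of probe sets, against 24.3% for replicate 1 and 27.5% for replicate 3. All 18 probe sets for the spiked hybridization controls were also higher on it in the deposited values, by a median of 0.37. The 3' minus 5' signal of the glyceraldehyde phosphate dehydrogenase control, used to judge RNA integrity, was 0.85, 0.77 and 0.88, and that of the beta-actin control was -1.61, -1.75 and -1.58. Both were lowest on replicate 2, although their signs were opposite. Respiratory chain genes were lowest on replicate 2 in 52 of 66 cases, with a median of -0.22 relative to the mean of the others. Antioxidant genes were lowest on it in 33 of 44 cases (median -0.17), and mitosis genes were highest on it in 43 of 76 (median 0.10). Of all 7531 genes, replicate 2 was lowest in 3458 and highest in 2456 (median -0.06). Whether the culture or the hybridization set replicate 2 apart was not tested. Without replicate 2 the median SD was 0.12, but an SD over a pair of arrays is not directly comparable with the 0.20 over 3.

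Among probe sets above the lower 25% of signal (level 5.32), the largest SD was that of c1qc.L, a complement gene, with 6.49, 4.69 and 6.12 (SD 0.95). It was followed by a weak probe set for the poly(A)-binding protein pabpc1.S with 4.73, 6.52 and 5.23 (SD 0.92), whose stronger probe set had 12.22, 12.38 and 12.40. Genes of higher signal in this group were slurp1l.S (10.07, 8.47 and 9.55), the focal adhesion protein tln2.S (10.21 ± 0.71), the stress gene gadd45g.L (8.84, 8.01 and 9.51), the antiproliferative factor tob1.S (8.75, 8.43 and 7.20), the glutathione peroxidase gpx3.L (9.06, 7.69 and 8.50) and the isoprenoid enzyme idi1.L (8.46, 7.11 and 8.04). The array farthest from the other pair was replicate 2 in 10 of the 15, replicate 3 in 4 and replicate 1 in 1.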

How the data were processed

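Total RNA of XLK-WG cells was labelled with biotin and hybridized to Affymetrix Xenopus arrays, 1 culture per array. The labels' protocols name RNeasy columns for the extraction and MessageAmp II for the labelling. The deposited values are log2 signals and stop at a floor of 0, with the base inferred from their range. The submitters' processing notes name GCOS, and its version and the algorithm, scaling target and log step behind the values are not given in the sources used. Detection calls were not used.

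From the deposited log2 signals, all 9 arrays were quantile normalized over 15611 probe sets with a function written for this work. The 120 control probe sets, 195 probe sets with several symbols and 5992 with none were then left out. Of the 9304 named probe sets, 9227 matched the reference gene table by identifier. Levels, percentiles and SDs were taken over the 3 DMSO arrays, grouped by title. The number of arrays limits the precision, and deposited medians were 6.83, 6.86 and 6.73. No groups were compared, so no test was run. Of the sample columns, 0 were left unmapped.

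The members and the gene lists (42 by function, 13 of markers) were chosen with earlier results of these data known. By rule, the genes named were drawn from the 25 highest, the highest and lowest of each list, the markers, the members of short lists, the copy pairs with the largest differences and the probe sets with the largest SD. Members of a list that a count singles out were also named where they fell outside this rule, after their values were seen. The calculation was tested on simulated data. Python 3.11.15, pandas 2.3.3, numpy 2.4.6 and matplotlib 3.10.9 were used. Alternatives were deposited values, normalization over the 3 arrays alone, percentiles over all non-control probe sets, the median over a gene's probe sets, other filters and leaving out each array. Promoter motifs were planned but not analysed, because no promoter sequences were used here.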

Additional observations from a re-analysis of the deposited data

How the results depend on the processing

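Percentiles depend on ranks within an array, so deposited values and normalization over the 3 DMSO arrays alone moved 0 of the 55 list medians beyond the spread between arrays. By the same measure, 54 moved with percentiles over all non-control probe sets and 27 with the median over a gene's probe sets. Leaving out replicate 1, 2 or 3 moved 3, 11 and 7 in that order. With percentiles over all non-control probe sets, the number of function lists with a median in the lower 25% was 2 in place of 9, since many unnamed probe sets are dim, and the medians of phase I and II metabolism (51.6) and TGF-beta and BMP signalling (51.3) came to lie over 50. With the median over a gene's probe sets, that of the fibroblast and mesenchymal markers fell to 44.7, against 63.4. The median of .L minus .S was 0.19 in pairs with 1 probe set per copy, and 0.14 to 0.17 when each array was left out in turn. The median SD was 0.12 without replicate 2 and ran from 0.12 to 0.20 over the arrays left out, each taken over the remaining pair of arrays. Counts of genes in the upper or lower 25%, of copy pairs called and of genes above the controls stayed within 1.5 times under every alternative run for them. The counts in the upper or lower 25% are largely set by how a percentile is defined, so their stability carries little weight. With the 17 tag probe sets alone as the limit, an alternative added after seeing the data like the others for this limit and that on probe sets per copy, 5371 genes lay above it. No gene list or copy pair was tested, and no paired comparison exists. No paired analysis was possible because the result comes from 1 group of arrays with no test. Dim signal is 1 limit, since 1960 genes could not be told from background, and disagreement between probe sets of the same copy is another.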

Other observations

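Several genes at the low end of the growth lists are forms known from the Xenopus egg and early embryo, while the form known from somatic cells lay above the control limit. This was seen in the values and not looked for, the genes were chosen after that, and no test was made. The embryonic cyclin A1 had 3.56, 3.50 and 3.96 for ccna1.L and 4.38, 4.80 and 4.64 for ccna1.S, while cyclin A2 had 8.17, 8.34 and 8.20 for ccna2.L and 8.97, 9.02 and 9.04 for ccna2.S. Of the replicative helicase, mcm3.L (4.85 ± 0.36; SD, n = 3 throughout) and mcm6.L (1.69 ± 0.36) lay below the limit on all 3 arrays, and zmcm3.L (8.24 ± 0.21), mcm6.2.L (8.34 ± 0.32) and mcm6.2.S (7.76 ± 0.15), whose symbols mark the other forms, lay above it.

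The same held for the mitotic kinases wee2.L (5.33 ± 0.34) and wee2.S (4.95 ± 0.33) beside wee1.L (8.18 ± 0.18) and wee1.S (6.98 ± 0.33). It held for the embryonic poly(A)-binding protein pabpc1l.L (5.18 ± 0.11) beside pabpc1.S (12.33 ± 0.10), and for the oocyte lamin lmnb3.L (4.86 ± 0.27) beside lmnb1.L (8.81 ± 0.18). The oocyte linker histone h1-8.S was at 3.25 ± 0.25. Exceptions were eef1a1o.L (8.42 ± 0.18) and npm2.L (6.63 ± 0.33), named for the oocyte and egg forms, which lay above the limit on all 3 arrays. Each of the low forms was read by 1 probe set. The weaker probe sets of mcm6.2.S (3.05 ± 0.27) and wee1.S (5.07 ± 0.40) lay below the limit on all 3 arrays, and that of pabpc1.S (5.49 ± 0.92) was above it on 1, so these forms are above the limit by their stronger probe set alone. The difference between the 2 forms of a gene is not a measured fold.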
